A study of Danio rerio with 12 samples.

Results

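The baseline transcriptome described here is that of whole wild-type zebrafish embryos (Danio rerio) kept in the vehicle, 0.1% DMSO, from 6 to 24 hours post fertilization (hpf). It rests on 4 of the 12 RNA-seq libraries of the study, namely all of those labelled DMSO. The remaining libraries come from embryos given GW9662 or rosiglitazone, an antagonist and an agonist of PPARγ, and were not used. All 4 libraries share genotype, vehicle and tissue, and the sources used here name neither the strain, nor the embryos per library, nor the genome build. The batch tag reads 24, 25, 26 and 27 hpf for replicates 1 to 4 and goes on in steps of 1 to 35 over the 12 libraries, although exposure ended at 24 hpf. It may therefore mark neither an age nor a batch, and it was used for nothing here. No label states that the replicates came from separate clutches, so every SD below measures the spread between libraries, which may be technical.

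At about a day after fertilization the zebrafish embryo has left gastrulation behind. Its somites have formed and twitch, red cells enter the circulation, the heart beats, the lens and otoliths are present, pigment begins to appear and the hatching gland is loaded with protease. The yolk is still the only food, and the yolk syncytial layer around it packs lipid into lipoproteins for export. Whole-embryo RNA is a mixture, so fewer cells of a type and less RNA per cell cannot be told apart in any level given here.

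Expression was deposited as FPKM, fragments scaled to gene length and library size, for 31901 genes. The FPKM values multiplied by gene length were whole multiples of 1 step in every library, which gives 17046260, 15734609, 12772174 and 19042243 counted fragments for replicates 1 to 4. Between 21913 and 22406 genes were above 0 in a library, and 24465 were above 0 in at least 1. Across genes with a mean of at least 1 FPKM, log2 values were taken after 0.5 was added to each FPKM. For any pair of libraries these values correlated with Pearson's r between 0.983 and 0.990. Their median absolute difference ran from 0.10 to 0.15 on the log2 scale. The 6 pairs of libraries differed by more than sampling noise, with a chi-square of 3.06 to 6.63 per degree of freedom, so none is a second deposit of another.

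With a gene called detected at a mean of at least 1 FPKM, 13888 of the 31901 listed genes (43.5%) were detected. Among protein coding genes 13466 of 25431 (53.0%) were detected, against 422 of 6470 (6.52%) of all other classes. Most of the RNA came from few genes. The 77 genes at 1000 FPKM or more held 34.3% of all FPKM, whereas the 8520 genes between 1 and 10 FPKM held 7.31%. The 10 most abundant genes took 9.39 ± 0.149% (SD, n = 4) and the top 100 took 38.7 ± 0.273%. It took 45 genes to reach 25% of all FPKM, 213 to reach 50%, 1428 to reach 75% and 4498 to reach 90%. FPKM is per length, and counted as fragments 466 genes made 50%. At the other end, 7436 genes were listed at 0 in all 4 libraries.

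The most abundant gene was mt-co1, the mitochondrially encoded subunit of cytochrome c oxidase. It stood at 6686, 6443, 6088 and 6484 FPKM in replicates 1 to 4 (mean 6425 ± 249, SD). Replicate 3 was the lowest and replicate 1 the highest, as in mt-co2, mt-co3 and mt-atp6. Next came actc1b (ENSDARG00000099197, chromosome 17, 117024 to 125091 in the authors' coordinates), an alpha actin of muscle, at 5531, 5565, 5435 and 5660 FPKM, so its 4 values lay within a narrow band. The next 3 places went to mt-co2 (5516 ± 287), mt-co3 (4984 ± 224) and mt-atp6 (4744 ± 290). The first gene of the translation machinery was rplp0, a protein of the ribosomal stalk, at 4284 ± 104 FPKM. The seventh gene, FO704736.1 (3419 ± 95.4 FPKM, chromosome 7), is classed as a processed transcript, but the gene name table gives its identifier the name rps20, a ribosomal protein of the small subunit. It gave 0.725% of all FPKM, out of 0.901% for its whole class.

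**Figure D1:**
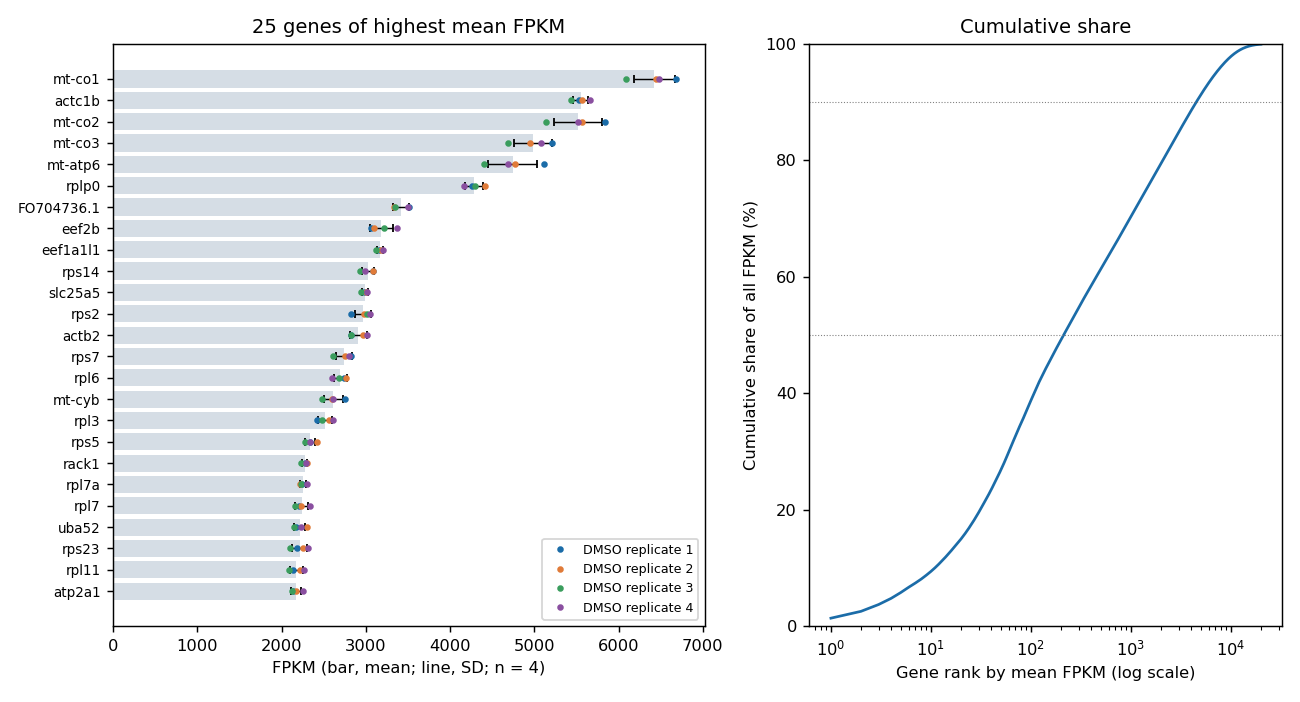
Left, FPKM of the 25 genes of highest mean in each of the 4 DMSO libraries (points), with the mean (bar) and SD (line); right, cumulative share of all FPKM in percent against gene rank on a log scale, with dotted lines at 50% and 90%. The mt-co1 gene leads at 6425 FPKM, rplp0 is sixth at 4284, and the 50% line is crossed at 213 genes.

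Among the 25 leading genes, 13 carry the symbol of a cytosolic ribosomal protein and 5 are mitochondrially encoded. Families were matched on the symbols in the authors' annotation, so FO704736.1 is not among the 13. The others include eef2b and eef1a1l1, which drive elongation on the ribosome, at 3181 ± 138 and 3163 ± 37.0 FPKM. They also include slc25a5, the ADP/ATP carrier of the inner mitochondrial membrane (2986 ± 34.4), actb2, a cytoplasmic beta actin (2909 ± 98.7), and atp2a1, the calcium pump of the fast muscle sarcoplasmic reticulum (2170 ± 55.4). The atp2a1 locus overlaps hsp70.1, hsp70.2 and hsp70.3 in the authors' annotation, and the labels describe both a directional and a non-directional library, so reads of overlapping genes may not have been told apart.

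By family, the 85 listed cytosolic ribosomal protein genes held 17.9 ± 0.122% of all FPKM, and 81 of them were detected. FO704736.1, named rps20 only in the gene name table, is outside this share. Mitochondrially encoded genes held 7.22 ± 0.242%, with 7.55% in replicate 1, 7.19% in replicate 2, 6.98% in replicate 3 and 7.14% in replicate 4. Counted as fragments, ribosomal proteins took 10.1 ± 0.0852% and mitochondrially encoded genes 3.32 ± 0.136%. Sarcomere proteins held 3.12 ± 0.0267% of FPKM, translation factors 3.07 ± 0.0435%, splicing factors and hnRNPs 2.45 ± 0.0266%, and the nuclear genes of the respiratory chain and ATP synthase 2.02 ± 0.0521%. Nucleolar, prothymosin and high mobility group genes together held 2.12 ± 0.0378%, led by hmga1a, an architectural chromatin protein, at 2010 ± 60.6 FPKM. Apolipoproteins held 1.73 ± 0.0355%, keratins 1.14 ± 0.0363% and histones 1.0 ± 0.00874%. The replacement histone gene h3f3b.1 led the histones at 1449 ± 46.8 FPKM. Heat shock proteins and chaperonins held 0.923 ± 0.0171%, with hsp90ab1 at 1063 ± 28.8 FPKM.

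Families of sensory and immune repertoire genes were at the other extreme. None of the 276 odorant and taste receptor genes was detected, and 231 of them were listed at 0 in all 4 libraries. The highest, ora3, read 0.577, 0.251, 0.0760 and 0.0525 FPKM in replicates 1 to 4, so all 4 libraries lay below the threshold. Of 161 NLR and TRIM genes, families linked to pathogen sensing, 20 were detected, and of 57 protocadherins, adhesion proteins of neurons, 12 were. These counts stand beside 53.0% detected over all protein coding genes.

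Levels were also read by lists of marker genes for 23 tissues of the embryo. In these lists 275 of 351 genes (78.3%) were detected, beside 53.0% of all protein coding genes. In 5 further lists for germ cells, oocytes, the gastrula, the pineal gland and organs that work only later, 12 of 65 (18.5%) were. Members of the 23 lists were thus mostly above the threshold and those of the 5 mostly below it. Germ cells (3 of 9) and the pineal gland (0 of 6) were counted with the 5. Over all lists the detected share was 69.0%. The lists were chosen with earlier results of these data known, so the contrast is no check of the label of 24 hpf whole embryos. Nor can the lists place the time more closely.

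**Figure D2:**
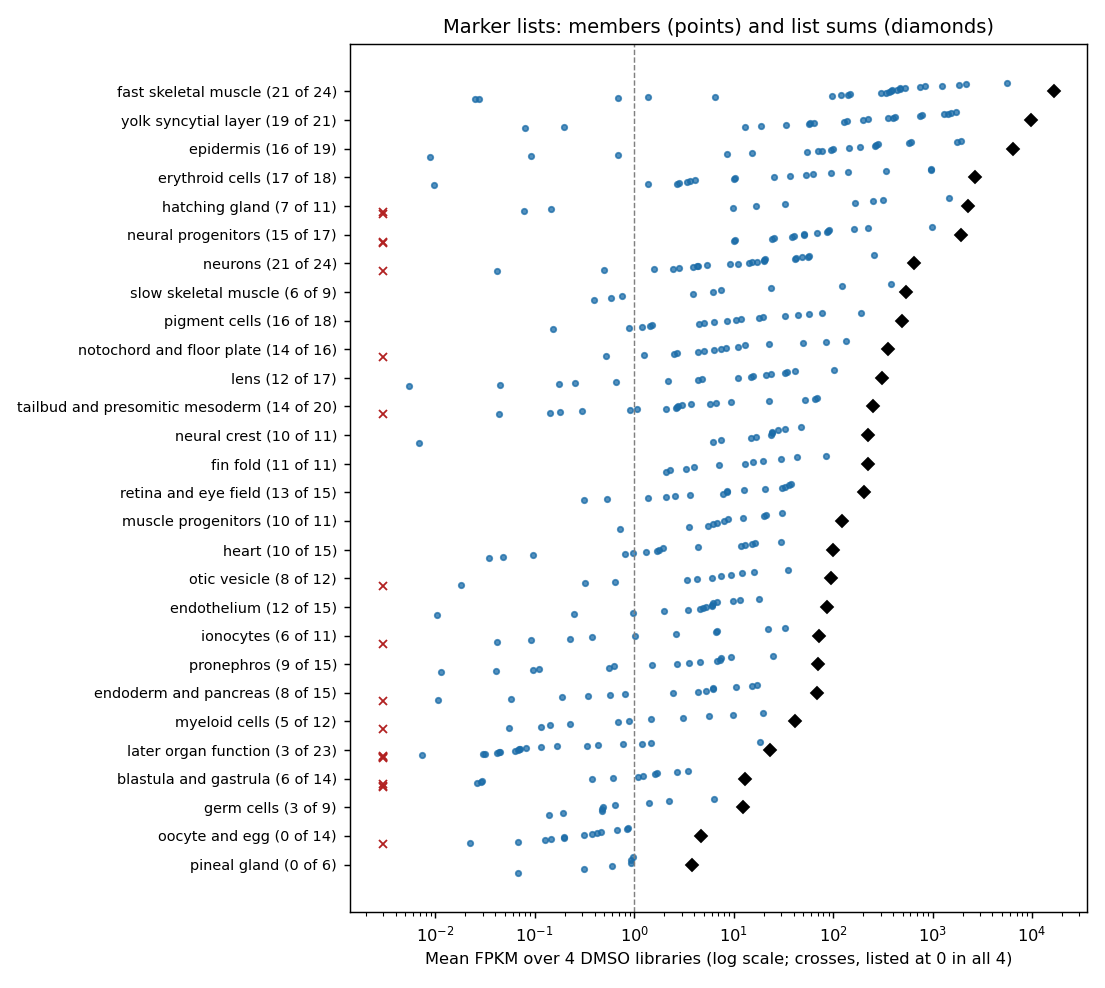
Mean FPKM over the 4 DMSO libraries on a log scale for each member of 28 marker lists (points; crosses, members listed at 0 in all 4 libraries) and for the sum of each list (diamonds); list labels give the members detected of those matched, and the dashed line marks 1 FPKM. Fast skeletal muscle leads with a sum of 16594 FPKM, and the oocyte and pineal lists have no member at or above the line.

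Fast skeletal muscle had the highest sum of any list, 16575, 16395, 16225 and 17181 FPKM in replicates 1 to 4 (mean 16594 ± 417), with 21 of 24 members detected. The 4 values spanned a small part of their mean. After actc1b and atp2a1 came ckmb, the muscle creatine kinase, at 1823 ± 97.6 FPKM, and the myosin light chain myl1 at 1231 ± 100. Slow muscle summed to 545 ± 12 over 9 matched members, mostly from the light chain gene myl10 (379 ± 9.98) and the troponin gene tnnc1b (122 ± 6.58). Its myosin smyhc1 stood at 24.0 ± 3.01. The fast and slow lists differ in length, so their sums do not measure fast against slow fibres. The muscle progenitor list had 10 of 11 members detected, from myod1, the myogenic determination factor, at 30.6 ± 2.36 FPKM, down to pax7a at 0.722 ± 0.220. The heart list, in which the cardiac myosin gene vmhc was not matched, summed to 99.4 ± 3.69 FPKM. In it the cardiac myosin light chain gene myl7 stood at 29.9 ± 1.72, gata5 at 16.3 ± 0.812 and tnnt2a at 15.4 ± 1.13.

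The yolk syncytial layer list came second at 9652 ± 393 FPKM, with 19 of 21 members detected. Its leaders were lipoprotein genes: apoa2 (1726 ± 93.2), apoeb (1534 ± 92.6), apoa1a (1439 ± 52.9) and apoc1 (1314 ± 105). The epidermis list followed at 6450 ± 385, led by the keratin genes cyt1 (1935 ± 95.8), cyt1l (1754 ± 130) and krt4 (609 ± 56.8) and by the S100-like gene icn (582 ± 71.5). In the muscle, yolk and epidermis lists replicate 3 was the lowest library and replicate 4 the highest, as in the total over all genes (458540 and 481561 FPKM). As a share of that total the same order held for yolk (1.98% and 2.08%) and epidermis (1.29% and 1.43%), whereas for muscle replicate 2 was the lowest, at 3.47%, and replicate 4 the highest, at 3.57%. The hatching gland list summed to 2269 ± 121, of which he1.1, a hatching enzyme protease, gave 1584, 1482, 1396 and 1441 FPKM, with replicate 1 highest. The gland's cathepsin ctslb stood at 252 ± 10.8 and its regulator xbp1 at 166 ± 5.98.

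Erythroid genes had the widest spread of the large lists. Their sum read 2991, 2852, 2671 and 2283 FPKM in replicates 1 to 4, a mean of 2699 ± 307 and a coefficient of variation of 11.4%. A pair of embryonic globins made up most of it. The beta-like hbbe3 read 1085, 1042, 969 and 722.5 FPKM (955 ± 162) and the alpha-like hbae3 read 1028, 965, 954 and 867 (953 ± 66.1). Replicate 4 was the lowest library and replicate 1 the highest for both, and for the list as a share of all FPKM (0.474% and 0.632%). The 9 haemoglobin genes took 0.559 ± 0.0682% of all FPKM. Of the haem synthesis genes, urod stood at 62.5 FPKM but alas2, the erythroid enzyme of the first step, at 0.00971. Myeloid genes were few: 5 of 12 were detected, led by cebpa (19.8 ± 0.182) and lcp1 (9.74 ± 0.421), and the neutrophil peroxidase gene mpx stood at 5.59 ± 0.411. The endothelium list had 12 of 15 detected, led by fli1a at 17.9 ± 0.509 and clec14a at 11.7 ± 1.08.

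In the nervous system, neural progenitor genes summed to 1950 ± 24.4 FPKM and neuron genes to 655 ± 10.1. The progenitor sum included pcna, the DNA replication clamp of every dividing cell, at 978 ± 38.8. After it, sox3, a neural progenitor factor, led at 225 ± 3.34, followed by the radial glial fatty acid binding gene fabp7a (161 ± 12.8) and gfap (90.4 ± 2.98). Among neuron genes the tubulin tubb5 stood at 255 ± 4.56, the RNA-binding gene elavl3 at 57.6 ± 6.00, stmn1b at 55.9 ± 1.3 and sncb at 49.2 ± 8.24. The list's genes of transmitter synthesis were low: gad1b and gad2, which make GABA, stood at 2.46 and 1.57 FPKM, and the choline acetyltransferase gene chata at 0.492. The synaptic genes snap25a and snap25b of the same list stood at 20.2 ± 1.01 and 3.88 ± 0.397. The lens list summed to 309 ± 11.5, led by the beta crystallin crybb1 (101 ± 1.96), while the alpha crystallin genes cryaa, cryaba and cryabb stood at 0.255, 0.0449 and 0.00543. The eye field factor pax6a stood at 33.0 ± 1.03.

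Neural crest genes had 10 of 11 members detected, led by tfap2a at 48.0 ± 0.430 and twist1a at 32.6 ± 1.77. Pigment cell genes summed to 493 ± 3.99, the smallest relative spread of any list in summed FPKM (0.809%). This rank did not hold for shares of all FPKM. The pigment list read 0.104%, 0.103%, 0.108% and 0.103% in replicates 1 to 4, and neural progenitors, relatively steadier, 0.412%, 0.414%, 0.418% and 0.410%. In the pigment list gch2, which makes pteridine pigment, stood at 190 ± 5.41 and the melanin enzymes tyrp1b and dct at 77.9 ± 4.51 and 57.3 ± 2.80. The notochord and floor plate list summed to 354 ± 21.3, of which col2a1a gave 127, 142, 116 and 154 FPKM, and replicates 3 and 4 were the extremes. All 11 fin fold genes were detected, led by col1a1a (84.3 ± 8.41). The tailbud and presomitic mesoderm list had 14 of 20 members detected, with a median of 2.73 FPKM over members and wnt8a listed at 0. Only 4 members reached 10 FPKM. These were the Notch ligand gene dld at 69.2 ± 0.371, the segmentation genes hes6 and her12 at 66.3 ± 3.33 and 52.4 ± 3.25, and tbxta at 22.7 ± 0.538. The tbxta gene is also in the notochord list, and whole-embryo levels do not show how much of any of them came from the tailbud. Ionocyte, otic vesicle, pronephros and endoderm lists each summed to under 100 FPKM. Their leaders were atp1b1b (32.7 ± 1.57), dlx3b (35.0 ± 1.52), cdh17 (25.1 ± 1.89) and foxa1 (17.2 ± 0.689).

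No member of the oocyte list was detected (0 of 14), and its highest, the egg envelope gene zp3b, stood at 0.874 ± 0.202 FPKM. Of 9 germ cell genes 3 were detected, led by nanos3 at 6.39 ± 0.372 and the germ plasm helicase ddx4 at 2.23 ± 0.565. Of 14 blastula and gastrula genes 6 were detected, all below 4 FPKM, led by the ventral factors vox (3.47 ± 0.488) and ved (2.71 ± 0.622), and gsc, sebox and dharma were listed at 0. Among 23 genes of later organs 3 were detected, and the intestinal gene fabp2 (18.2 ± 0.540) was the highest. The opsin gene opn1lw1, the myelin gene mbpa, bglap and gnrh2 were listed at 0.

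Transcription factors, taken as the 2280 genes with a factor family in the authors' annotation, had 1311 detected (57.5%) and held 4.30% of all FPKM. Only 16 reached 100 FPKM. The annotation counts chromatin proteins among them, and these led: hmga1a, the cold shock protein ybx1 (1260 ± 53.4) and hmgb2b (1247 ± 58.2). Of sequence-specific factors, atf4a, an effector of the stress and amino acid response, read 436, 454, 433 and 441 FPKM, and its 4 values differed little. After it came sox3 and xbp1. The annotation also counts the bHLH antagonist id1 (152 ± 1.65), which led the bHLH family. Among families, and beside 53.0% of all protein coding genes, 50 of 61 HMG genes, 186 of 254 homeobox genes, 89 of 128 bHLH genes and 44 of 68 forkhead genes were detected, as were 9 of 27 genes of the thyroid receptor-like class. Of the 1026 C2H2 zinc finger genes 506 (49.3%) were detected, 87 of 392 (22.2%) on chromosome 4 beyond 30 Mb and 419 of 634 (66.1%) elsewhere.

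Hox genes, which give axial position, were detected in 45 of 48 cases, beside 53.0% of all protein coding genes. The 3 below 1 FPKM, hoxb5b (0.663), hoxb6b (0.498) and hoxb8b (0.898), all lie in the bb cluster, whose 4 genes summed to 3.30 ± 0.408 FPKM. The ba cluster summed to 183 ± 5.27 over 11 genes and the ca cluster to 152 ± 6.22 over 11. By paralogue group, group 9 was highest at 95.6 ± 3.78 FPKM over 5 genes, then group 3 at 67.5 ± 1.90 over 4 and group 8 at 53.4 ± 2.21 over 3. The highest single gene was hoxb9a with 29.9, 31.6, 28.3 and 33.3 FPKM, and hoxb8a at 29.9 ± 0.678 differed from it by less than its spread.

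Signalling genes were read family by family, beside the 53.0% of all protein coding genes that were detected, and shares of ligands and receptors were not tested against each other. Of Wnt ligands 14 of 26 were detected, led by wnt11r at 35.9 ± 0.891, and of their Frizzled receptors 10 of 13, led by fzd8a at 39.6 ± 1.26. Of fgf genes, matched by symbol and not all of them receptor ligands, 11 of 32 were detected, none above 10 FPKM. The highest was fgf13a at 8.84 ± 0.731, and fgf3 stood at 6.01 ± 0.365 and fgf8a at 3.02 ± 0.325. All 7 Fgf receptor genes were detected, led by fgfr2 at 40.9 ± 1.39. Of Delta and Jagged ligands 6 of 8 were detected, and all 4 Notch receptors were, led by notch1a at 50.6 ± 5.48. Of Bmp ligands 6 of 12 were detected, led by bmp5 at 16.2 ± 1.13. The hedgehog ligand genes shhb and shha stood at 5.02 ± 0.262 and 1.24 ± 0.189.

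Of the 5 PPAR genes, whose products bind lipid ligands, ppardb was the highest at 8.0, 8.97, 9.05 and 9.36 FPKM. The vehicle level of pparg, the receptor that both compounds of the study address, was 1.13, 1.58, 1.1 and 2.28 FPKM, a mean of 1.52 ± 0.552 and close to the detection threshold. The pparaa gene stood at 2.76 ± 0.123, pparda at 0.889 ± 0.333 and pparab at 0.244 ± 0.130. Their partners rxrba and rxraa stood at 8.29 ± 1.28 and 6.03 ± 0.367. Among the 56 other nuclear receptors 22 were detected, beside 53.0% of all protein coding genes. Their leaders were nr2f5, nr2f1a and nr2f2 of the COUP class at 97.9 ± 3.12, 83.0 ± 3.16 and 64.9 ± 2.30.

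Cyclins and claudins were mostly detected, and most genes of electrical excitability were not, beside 53.0% detected over all protein coding genes. Of cyclins 25 of 29 were detected, led by ccnb1 at 103 ± 5.95 and ccnd1 at 89.6 ± 1.32. Of claudins, the seals of tight junctions, 21 of 31 were detected, led by cldne (95.6 ± 1.13), and of connexins, the subunits of gap junctions, 11 of 32, led by cx43.4 (265 ± 6.24). The neural cadherin cdh2 stood at 60.5 ± 1.65 and the epithelial cdh1 at 24.4 ± 0.896. By contrast, 11 of 102 potassium channel genes, 15 of 63 sodium and calcium channel genes, 3 of 39 glutamate receptor genes and 0 of 30 GABA and glycine receptor genes were detected. Of the latter the highest was glra3 at 0.949 ± 0.106 FPKM, and none of the 30 was listed at 0. Of chemokines and interleukins 6 of 63 were detected, led by cxcl12b (36.6 ± 4.6) and cxcl14 (26.7 ± 2.05).

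The teleost lineage went through a whole-genome duplication, and many genes survive as a pair named with the letters a and b. Such a pair was tested where the higher copy had a mean of at least 1 FPKM, on log2((a + 0.5)/(b + 0.5)), with limma's treat against a 2-fold difference, across all pairs at once. Of 2020 pairs, 1361 (67.4%) were more than 2-fold apart at an adjusted p under 0.05. The p-values measure only the spread of a ratio between libraries, not errors of gene length or mapping that all 4 libraries share. The a copy was the higher in 729 (36.1%) and the b copy in 632 (31.3%). In 1841 pairs (91.1%) the 4 values of one copy all lay above the 4 of the other. The filter looks at the higher copy only and so favours unequal pairs: in 867 of the 2020 the lower copy had a mean under 1 FPKM. Both copies were detected in 1153 pairs (57.1%), of which 597 were called, and the median fold in those 1153 was 2.37 on the scale with the pseudocount. With no filter on low pairs, 1383 of 2562 were called. The letters do not always mark duplicates: sgca and sgcb, for instance, code for different sarcoglycans.

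**Figure D3:**
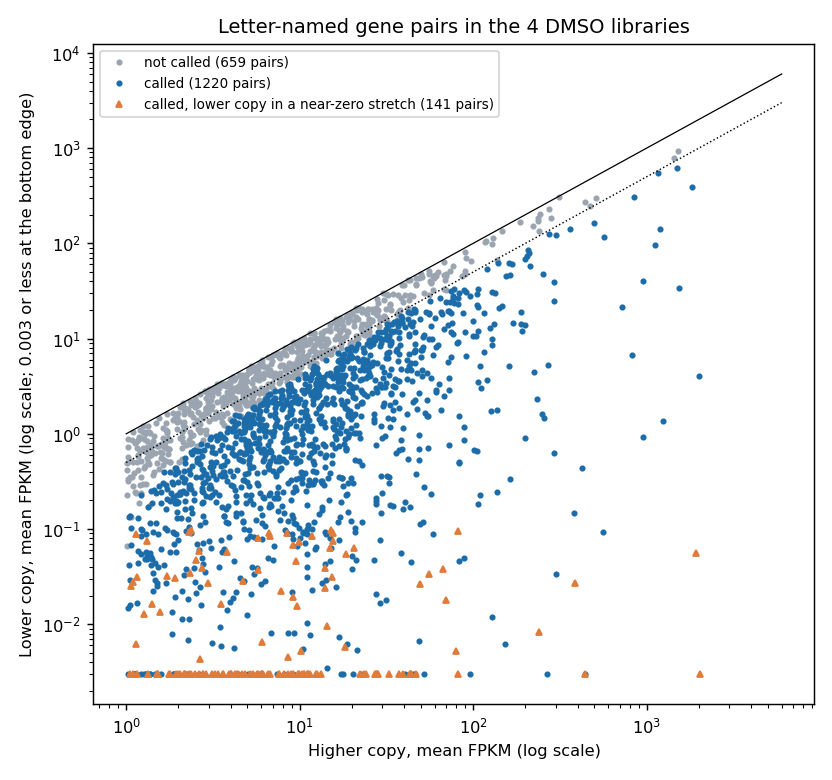
Mean FPKM of the lower copy against the higher copy for 2020 letter-named pairs, both on log scales; the solid line marks equal levels and the dotted line 2-fold. Called pairs lie below the dotted line, and the 141 called pairs drawn as triangles have their lower copy in a stretch of neighbouring genes that all stand under 0.1 FPKM.

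The most unequal called pairs joined an abundant gene to a copy listed at or near 0. The gene faua, which codes for a ubiquitin-like protein fused to a ribosomal protein, stood at 2033 ± 68.3 FPKM with faub listed at 0, desma, the muscle intermediate filament gene, at 443 ± 11.7 with desmb listed at 0, and atf4a at 441 ± 9.18 with atf4b listed at 0. The prothymosin gene ptmab stood at 1913 ± 104 with ptmaa at 0.0562, mylpfb at 384 ± 18.6 with mylpfa at 0.0273, and fkbp1aa at 558 ± 16.3 with fkbp1ab at 0.0925. The lower copies faub, ptmaa, atf4b and mylpfa lie among neighbours that are also under 0.1 FPKM, and the part of this in the ratios was not tested. No fold is given for these 6 pairs.

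Where both copies were detected, the widest pairs kept a measurable lower copy. The chromatin gene hmgb2b read 1279, 1212, 1185 and 1311 FPKM, and hmgb2a read 1.76, 1.40, 1.08 and 1.17. The log2 ratio of a to b was -9.41 ± 0.0797 (SE), with adjusted p = 4.32e-10 by limma. For hmga1a and hmga1b (4.05 ± 0.302 FPKM) it was 8.79 ± 0.0324, with adjusted p = 1.20e-11 by limma. For the transketolase genes tkta (1.47 ± 0.227) and tktb (257 ± 7.87) it was -7.03 ± 0.0754. The ferritin gene fth1a stood at 827 ± 11.9 and fth1b at 6.77 ± 1.17, the lipoprotein-binding gene hdlbpa at 251 ± 2.81 and hdlbpb at 1.60 ± 0.233, and the glutamate transporter slc1a3a at 126 ± 4.90 and slc1a3b at 1.76 ± 0.302. Naming pairs by this detected-copies rule was chosen after their values were seen.

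Of 137 pairs with both copies at 20 FPKM or more, 53 were called. Apart from sgca and sgcb, the closest of the others were irx1a at 28.9, 29.5, 31.1 and 31.4 FPKM against irx1b at 28.4, 30.5, 28.5 and 31.6, which overlap. The splicing factors hnrnpa1a (313 ± 35.6) and hnrnpa1b (306 ± 15.8) had a log2 ratio of 0.03 ± 0.0418 (SE). The haem synthesis genes hmbsa and hmbsb (21.3 ± 0.176 and 20.9 ± 1.52), the coatomer genes arcn1a and arcn1b (42.3 ± 1.61 and 40.8 ± 1.37) and the galectins lgals3a and lgals3b (48.1 ± 2.38 and 50.1 ± 0.689) came next. Their log2 ratios of a to b were 0.0284, 0.0501 and -0.0575. Among the marker genes, 20 pairs had both copies in the lists and 17 were called, 11 with the b copy higher. Examples are apoeb over apoea (1534 against 33.8 ± 2.01 FPKM), six3b over six3a (30.7 ± 1.02 against 2.11 ± 0.479), pax6a over pax6b (33.0 against 8.58 ± 0.501) and ckmb over ckma (1823 against 389 ± 21.0). The apolipoproteins apoa1a and apoa1b (1439 and 779 ± 30.7) were not called past 2-fold.

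A listed 0 in these files is not always an absent transcript. In 5 families of basic cell functions (ribosomal, proteasome, translation, respiratory chain and splicing genes), 26 of 397 members stood under 0.1 FPKM and 16 were listed at 0. Some of these are used in few tissues, such as psmb11a and psmb11b of the thymus proteasome, psmb8a of the immunoproteasome and eef1a2 of muscle and neurons, so the counts include genes that an embryo may lack. Others serve every cell: psma5, a core proteasome subunit, snrpd3, a core splicing protein, and ndufs4, ndufb4 and ndufb5 of respiratory complex I were all listed at 0. Low genes also cluster: 568 stretches of at least 3 neighbouring coding genes under 0.1 FPKM hold 3293 of 25093 coding genes (13.1%). Of the 26 family members 10 lie in such a stretch (38.5%), but 16 do not. Among all 6396 coding genes under 0.1 FPKM the share in a stretch was higher, at 51.5%. Some stretches are gene clusters with tissue-restricted use, since 265 of the 276 odorant and taste receptor genes lie in one. Others hold unrelated genes, as on chromosome 2 between 37959040 and 38080075, where 11 genes including the splicing gene hnrnpc stand at or near 0. The cause was not tested.

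The same limit touches the tissue lists. Of their 351 genes 36 were under 0.1 FPKM, 16 of them in such stretches, beside 51.5% of all coding genes under 0.1 FPKM. Among these 16 are the epithelial marker epcam (0.00886), alas2, flt1 (0.0104), pvalb2 (0.0254), coro1a and atoh1a, of which coro1a and atoh1a were listed at 0. The markers cd63, her9 and sox1a were listed at 0 outside any stretch, as was desmb.

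Detection fell away along 1 chromosome arm. Of 857 protein coding genes on chromosome 4 beyond 30 Mb, 134 (15.6%) were detected, against 391 of 618 (63.3%) on the rest of that chromosome. The 24 other chromosomes ran from 47.5% on chromosome 22 to 61.0% on chromosome 16, with a median of 55.0%. In steps of 5 Mb the share ran from 52.7% to 78.0% up to 30 Mb, from 4.17% to 14.9% between 30 and 70 Mb, and reached 27.9% and 30.2% in the last 2 steps. The arm holds 392 of the 541 snRNA genes of the annotation (72.5%), of which 1 was detected, and 392 of the 1026 C2H2 zinc finger genes. All 1518 genes of the arm together held 0.287% of FPKM. Its highest genes, CCT2 (384 ± 11.4 FPKM), cct2 (141 ± 6.12) and zgc:85975 (114 ± 3.41), lie close together near its end, and the first pair are near copies by name, between which reads may have been split. The long arm of chromosome 4 is known as late replicating and rich in repeats.

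**Figure D4:**
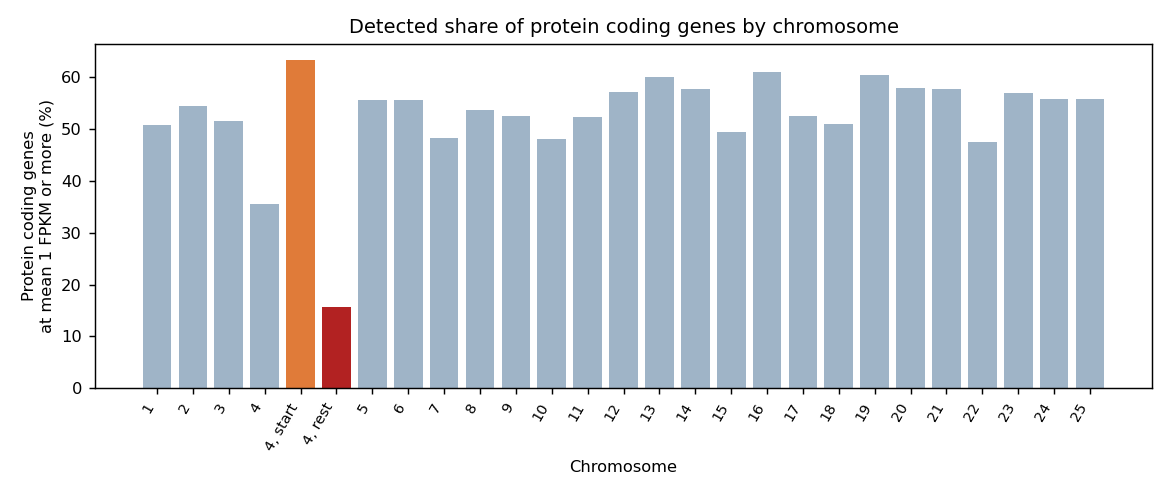
Share of protein coding genes with a mean of at least 1 FPKM over the 4 DMSO libraries, in percent, for chromosomes 1 to 25; chromosome 4 is also split at 30 Mb into its start and the rest. The rest of chromosome 4 stands at 15.6%, below every whole chromosome, and its start at 63.3%.

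Outside protein coding genes, 104 of 874 lincRNAs, 94 of 1046 processed transcripts, 35 of 672 antisense genes, 55 of 247 snoRNAs and 30 of 434 miRNA genes were detected. The top lincRNA, CR383676.1, carries the name malat1 in the gene name table and read 87.7, 90.1, 85.1 and 80.5 FPKM, close in all 4 libraries. Protein coding genes held 98.4 ± 0.0171% of all FPKM. Small RNAs are shorter than the fragments of an RNA-seq library: the top miRNA gene, dre-mir-219-3, read 12.9, 19.4, 13.3 and 10.7 FPKM, and the spliceosomal snRNA genes had 2 of 541 detected, so their levels are not read here as those of the mature RNA. The 1966 nuclear genes classed as rRNA, with a median length of 117 bases, took between 0.00249% and 0.00363% of fragments. This share covers only those listed genes and is not a measure of all ribosomal RNA. Of 22 mitochondrial tRNA genes 18 were detected, the highest at 251 ± 28.4 FPKM.

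The spread between libraries followed the level. The median coefficient of variation (SD over mean) was 0.0870 over the 13888 detected genes and fell from 0.191 at 1 to 2 FPKM to 0.0339 at 1000 or more. Counting error alone would give medians of 0.137 and 0.00546 in these classes. The lowest spreads above 20 FPKM were those of usp4 (28.2, 28.0, 27.9 and 28.1 FPKM), clul1, got1, timm8b, clint1a and dld, with coefficients of variation of 0.389% to 0.537%. As a fraction of the level, counting error alone has a median of 0.0297 at 20 to 50 FPKM and 0.0208 at 50 to 100. Spreads this low are thus below sampling noise and do not show that these genes are steadier than others. Of the 8093 genes with a mean of at least 5 FPKM, 101 had a coefficient of at least 0.3, and 74 of these were protein coding. By class, 5 of 8 miRNA genes and 7 of 15 snoRNA genes were that variable, against 0.932% of coding genes. These short genes rest on few fragments. Counting error alone was 0.246 to 0.385 in the 5 miRNA genes and 0.228 to 0.320 in the 7 snoRNA genes, near the cut of 0.3. The part of counting in their spread was not tested.

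**Figure D5:**
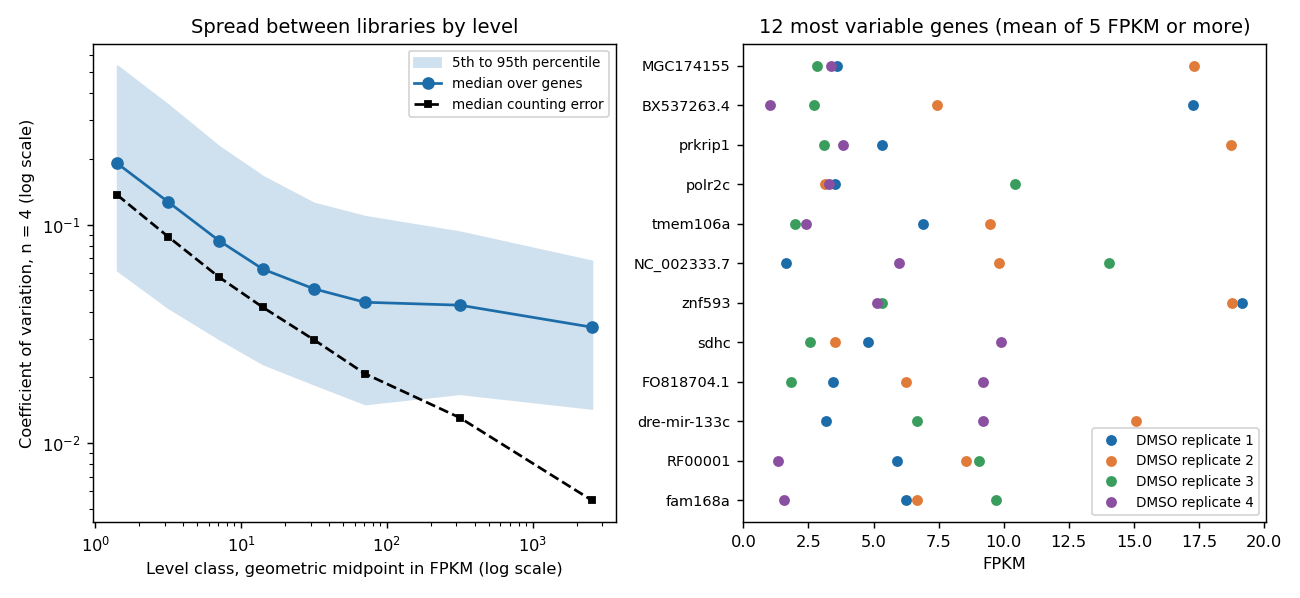
Left, median coefficient of variation over the 4 DMSO libraries by level class (circles), its 5th to 95th percentile over genes (band) and the median counting error (squares), both axes on log scales; right, FPKM in each library for the 12 most variable genes with a mean of at least 5 FPKM. The median falls from 0.191 to 0.0339, and MGC174155, prkrip1 and polr2c each have 1 library far above the other 3.

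The most variable coding gene was MGC174155 (chromosome 12), with 3.60, 17.3, 2.84 and 3.36 FPKM in replicates 1 to 4. The next, BX537263.4, read 17.3, 7.44, 2.70 and 1.01. The splicing-associated gene prkrip1 read 5.33, 18.7, 3.08 and 3.84. So replicate 2 stood alone in MGC174155 and prkrip1, while BX537263.4 differed in every library. For polr2c, a core subunit of RNA polymerase II, replicate 3 stood alone with 3.51, 3.14, 10.4 and 3.30 FPKM. The ribosome assembly gene znf593 fell into pairs instead, with 19.2, 18.8, 5.33 and 5.11 FPKM. Also on the list were sdhc, a subunit of respiratory complex II (4.79, 3.51, 2.57 and 9.88), and fam168a (6.24, 6.65, 9.71 and 1.56). Their coefficients of variation ran from 55.7% to 104%, where counting error gives 7.24% to 11.2%.

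Among the 74 variable coding genes 26 (35.1%) were highest in replicate 3 and lowest in replicate 4, an order found in 10.1% of all 8093 genes. Replicate 3 had the fewest fragments and replicate 4 the most, and whether depth has a part in this was not tested.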

How the data were processed

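The study measured whole-embryo RNA by RNA-seq in 12 libraries, of which the 4 labelled DMSO were used. The authors deposited FPKM per gene for all libraries in 1 table with gene length, position, class and transcription factor family. Per the submitters' processing notes, HISAT2 2.0.5 and featureCounts 1.5.0-p3 were used; no build is named in the sources used here. Multiplying FPKM by the deposited gene length in bases gave whole multiples of 1 step within a tolerance of 0.001 for 100% of values, hence fragments per library (12772174 to 19042243). Intervals and counting errors cover counting only.

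From the deposited FPKM, means and SDs over 4 libraries were computed with pandas 2.3.3 and numpy 2.4.6. A gene was detected at a mean of at least 1 FPKM. Shares are percent of summed FPKM. In the marker lists 416 of 427 symbols were matched. The list sums leave out the 11 others, among them vmhc, smyhc3 and hbbe1.3. Symbols that a spreadsheet had turned into dates (19) were restored through the gene name table in 15 cases. Letter-named pairs were tested with limma 3.58.1 (R 4.3.3; treat, trend, pseudocount 0.5, Benjamini-Hochberg adjusted p of 0.05), after a check on simulated data. Genes named are the 25 highest, the 12 highest factors, the top 4 and the zeros of each list, the top of each class and family, the 12 most and 6 least variable, and 8 pairs of each kind. Genes of the signalling, receptor and channel families, of the hox clusters and of stretches near 0 were named after their values were seen. The members, lists and rules were chosen with earlier results of these data known. Alternatives were each library left out, other thresholds, TPM, fragments, pseudocounts, filters and other bounds. A gene named by the rule is not reported here and stays in the sums and counts. No sequence was used.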

Additional observations from a re-analysis of the deposited data

Results flagged for a closer look

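In 17 of 312 values examined (named genes, family shares and list sums), 1 of the 4 libraries lay apart from the other 3, by a gap, divided by the whole range, above Dixon's critical value for 4 samples. Chance would flag about 1 in 20 such groups if they were picked without regard to their spread. The values examined were not: the named genes include the most and the least variable ones, chosen by their spread in these same libraries. They also include genes without a fragment in any library, which have no range and cannot be flagged. The count of flags therefore cannot be compared with the chance rate, and no conclusion is drawn from it.

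Replicate 3 lay low for cirbpa (1406 FPKM against 1539 to 1557), gch2 (182 against 192 to 194), clint1a (22.7 against 22.9), prss1 (0.348 against 0.861 to 0.961) and the apolipoprotein share (1.67% against 1.74% to 1.75%). It lay high for mef2d (21.9 against 19.5 to 19.6), polr2c (10.4 against 3.14 to 3.51) and the immunoglobulin pseudogene BX649502.6 (0.211, listed at 0 elsewhere). Replicate 4 lay high for hnrnpa1b (329.9 against 297 to 300.3), dct (61.5 against 55.3 to 56.3) and ftr82 (22.5 against 20.1 to 20.5), and low for prss59.1 (1.23 against 1.54 to 1.60). Replicate 2 lay high for prkrip1 (18.7 against 3.08 to 5.33), MGC174155 (17.3 against 2.84 to 3.60) and si:dkeyp-13d12.22 (1.36, listed at 0 elsewhere). It lay low for the heart list's sum (93.9 FPKM against 101) and the crystallin share (0.0717% against 0.0761% to 0.0766%). In prkrip1, MGC174155 and polr2c the single library was at least 2-fold above the others, and in most of the rest the gap was a small part of the level. Over all 8093 genes with a mean of at least 5 FPKM, 413 (5.10%) had such a library, and it was replicate 4 in 153 and replicate 3 in 130.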

How the results depend on the processing

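No paired analysis was possible because a single group was analysed. Leaving out each library in turn moved the 12 results over all genes little: 13835 to 13937 detected genes, 13413 to 13518 protein coding and 418 to 428 others, 287 to 290 list members, 211 to 214 genes for 50% of FPKM, 9.32% to 9.43% for the top 10 genes and 38.7% to 38.9% for the top 100, 17.9% to 18% for ribosomal proteins, 7.10% to 7.30% for mitochondrially encoded genes, a median coefficient of variation of 0.0766 to 0.0860, and 1334 to 1354 called pairs. The detected share of all genes on chromosome 4 beyond 30 Mb was 9.68%, and 9.75% to 10.01% without a library. It moved to 16.7% and 4.02% at thresholds of 0.5 and 2 FPKM, 7.11% at 1 FPKM in each library, 16.9% in TPM, 58.0% for any value above 0, and 11.3% and 10.3% with the bound at 25 and 40 Mb. Counting any value above 0 gave 24465 genes, 22359 of them protein coding and 2106 others, and a median coefficient of variation of 0.181 (0.0622 at 5 FPKM or more). Thresholds of 0.5 and 2 FPKM gave 16029 and 11589 detected genes, 15398 and 11302 of them protein coding, and 1 FPKM in each library gave 12922. TPM, which is 2.08 to 2.18 times FPKM here, gave 16192 detected genes at the same threshold of 1. Of these, 15534 were protein coding and 658 were not, and 319 list members were detected. In fragments rather than FPKM, the top 10 genes held 8.80%, the top 100 28.9%, ribosomal proteins 10.1% and mitochondrially encoded genes 3.32%, and 466 genes made 50%. Over nuclear protein coding genes alone, the top 10 held 7.77%, the top 100 36.3% and ribosomal proteins 19.6%. Called pairs ranged from 981 of 1363 (higher copy at 5 FPKM or more) to 1897 against no difference. In alternatives chosen after seeing the data, 1219 of 1879 pairs were called without lower copies in stretches near 0 and 1021 of 1683 without lower copies under 0.1 FPKM. Counting error, relative to the level, had its highest median (0.137) among genes of 1 to 2 FPKM; of the 4 libraries the shallowest had 14021 genes at 1 FPKM or more and the deepest 13689.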
